A study of Schizosaccharomyces pombe with 12 samples.

Results

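The 9 RNA libraries of the H3 mutants G34R and G34V and of Set2D cells were set as 1 side against the 3 libraries of wild-type cells, to describe which genes of fission yeast, Schizosaccharomyces pombe, moved the same way in all 3 mutants and which did not. The comparison used all 12 libraries of the series, 9 mutant and 3 wild-type, taken by the genotype in their labels. Wild-type cells (WT) carried wild-type histone H3, G34R cells had glycine 34 of H3 replaced by arginine, and G34V cells had it replaced by valine. Set2D cells had wild-type H3, and their label is taken to mean that the gene set2 was deleted. All groups grew overnight at 25 °C in YES, a rich medium, in cultures of 25 mL, and 2 µg of RNA depleted of ribosomal RNA went into each strand-specific library. Nothing in the labels tells whether replicate libraries come from independent cultures, so p-values rest on a spread between libraries that may be technical.

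Set2 is the methyltransferase that places methyl groups on lysine 36 of H3 behind elongating RNA polymerase II. The mark recruits a histone deacetylase complex, Clr6 complex II in fission yeast, that keeps the bodies of genes closed to transcription from inside the gene and from the opposite strand. Glycine 34 lies close to lysine 36 in the H3 tail, and substitutions there are known from human tumours.

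The labels were checked on the genes they name. The set2 gene had 133, 129 and 122 CPM in WT, 109, 109 and 112 in G34R, 126, 129 and 135 in G34V, with 4.38, 3.70 and 3.69 in Set2D. Its level in Set2D was 0.0303 times that in WT, with no overlap, so the label of these libraries held on this measure. In G34R it was lower, with a log2 change of -0.22 (adjusted p 0.000198, edgeR), and in G34V it was not called (0.02). Counts per gene cannot show a substitution of glycine 34. Of 3 genes for H3, hht2 took between 99.6% and 99.8% of the H3 counts in each of the 12 libraries, with 1 to 33 counts for hht1 and 137 to 491 for hht3, so all groups, WT included, had H3 RNA almost wholly from 1 copy, a state the labels do not mention. The hht2 RNA itself was lower in each mutant, with log2 changes of -0.16 in G34R, -0.23 in G34V and -0.20 in Set2D (edgeR quasi-likelihood, largest adjusted p 0.00341). Libraries held between 65797517 and 228726069 counts in genes, so that 3 counts, taken as the floor of detection, equalled 0.0134 to 0.0460 CPM, the count scaled to library size. Every count in the file of Set2D replicate 3 was even, against 48.4% to 50.6% of the counts in the other libraries.

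Of 7013 genes, 6602 passed the filter on low counts and were tested. A gene was called when its adjusted p in edgeR's quasi-likelihood test was under 0.05. With the 3 mutants given equal weight and compared with WT, 1977 genes were higher (29.9% of those tested) and 2127 were lower (32.2%). Each mutant was also compared with WT alone, and these comparisons share the 3 WT libraries. In G34R 1771 genes were higher (26.8%) and 1753 lower (26.6%), in G34V 1657 higher (25.1%) and 1649 lower (25.0%), and in Set2D 2276 higher (34.5%) and 2351 lower (35.6%). A gene called higher in each of the 3 comparisons was counted as higher in all 3 mutants, which held for 739 genes (11.2%), and 536 were lower in all 3 (8.12%). Another 988 genes (15.0%) were called in opposite directions in at least 1 pair of mutants, 1858 (28.1%) were called in exactly 1 mutant, 733 were higher and 965 lower in a pair of mutants, and 783 were called in none.

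The mean over the mutants was therefore an incomplete account of the 3. Of the 1977 genes that were higher in the mean, 739 (37.4%) were higher in all 3 mutants and 703 (35.6%) in exactly 2. Another 341 were called in 1 mutant alone, 191 in opposite directions and 3 in none. Of the 2127 that were lower, 536 (25.2%) were lower in all 3 and 933 (43.9%) in exactly 2, while 477 were called in 1, 177 in opposite directions and 4 in none. Most genes of opposite direction, 620 of 988 (62.8%), were not called in the mean. The shared changes were mostly small: of the 739 genes higher in all 3, 262 rose at least 1.25-fold in each mutant, 62 at least 1.5-fold and 2 at least 2-fold. Of the 536 genes lower in all 3, 18 fell at least 1.25-fold in each mutant, 2 at least 1.5-fold and 1 at least 2-fold. With libraries scaled by the upper quartile of their counts in place of TMM, genes that rose made up 73.1% of the shared calls against 58.0% here, and 60.4% of the calls in the mean against 48.2%; 739 of 739 shared higher calls held and 320 of 536 shared lower calls. When the 9 mutant libraries were fitted as 1 group, so that differences between mutants counted as spread, 655 genes were higher and 525 lower, and these held 605 of the 739 and 459 of the 536.

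Single libraries were also compared. The calls come from these same libraries, so the counts describe them and are no separate support. In 835 genes all 9 mutant libraries lay above all 3 WT libraries (12.6% of tested genes), and in 700 all 9 lay below (10.6%). Of the 739 genes called higher in all 3 mutants 701 had all 9 libraries above WT, and of the 536 called lower 514 had all 9 below.

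The coding genes that rose in all 3 mutants are described by 15 of them, given by role, with genes that act in meiosis and spore formation taken first. They were those with the highest log2 change in their least changed mutant, a mean of at least 5 CPM in 1 group and all 9 mutant libraries above WT, and each kept its call in each mutant when any 1 library was left out. The copper-responsive transcription factor gene cuf2, which acts in meiosis, had 1.91, 1.65 and 1.91 CPM in WT, 4.09, 4.53 and 4.09 in G34R, 4.01, 3.77 and 3.44 in G34V, with 6.96, 6.70 and 6.86 in Set2D. All 9 mutant libraries stood above WT, with the Set2D libraries highest. Its log2 changes were 1.21 (SE 0.074) in G34R, 1.05 (SE 0.079) in G34V and 1.90 (SE 0.073) in Set2D (largest adjusted p 5.09e-08, edgeR). It was 1 of the 2 genes that rose at least 2-fold in each mutant; the other, SPBC30B4.09, of unknown product, lay below the 5 CPM bound and is named because the count was seen to hold 2. Its mean was 0.798 ± 0.0702 CPM in WT, against 1.78 ± 0.311 in G34R, 3.09 ± 0.0631 in G34V and 2.71 ± 0.635 in Set2D (SD, n = 3, as for all means given as ±).

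The gene mfr1, for an activator of the anaphase-promoting ubiquitin ligase in meiosis, had 4.54, 4.06 and 4.34 CPM in WT, 8.25, 8.67 and 8.53 in G34R, 8.65, 8.58 and 8.25 in G34V, with 10.6, 11.0 and 10.8 in Set2D. The G34R and G34V libraries were close to each other and stood below Set2D. Relative to WT, the log2 changes were 0.98 (SE 0.048) in G34R, 0.98 (SE 0.050) in G34V and 1.32 (SE 0.049) in Set2D, and the difference of G34V from G34R had a 95% interval of -0.10 to 0.10. The kinase gene mde3, a target of the meiotic factor Mei4, had 3.50, 3.59 and 3.67 CPM in WT, 9.87, 9.38 and 9.57 in G34R, 8.57, 8.26 and 8.84 in G34V, with 6.62, 6.15 and 7.08 in Set2D. Set2D was the lowest of the mutants and still above WT. Log2 fold changes were 1.42 (SE 0.054) in G34R, 1.25 (SE 0.056) in G34V and 0.89 (SE 0.057) in Set2D (difference among the mutants, adjusted p 9.54e-07, edgeR).

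The septin genes spn5 and spn6, whose products act in the forming spore, rose together. In spn5 the values were 9.70, 10.1 and 9.97 CPM in WT, 19.9, 20.4 and 19.3 in G34R, 17.2, 18.0 and 17.3 in G34V, with 17.0, 17.0 and 16.6 in Set2D, with no overlap of mutant and WT libraries and G34R highest. In spn6 they were 21.9, 20.97 and 21.2 CPM in WT, 44.8, 44.5 and 44.7 in G34R, 32.7, 33.4 and 33.3 in G34V, with 45.0, 46.5 and 47.6 in Set2D, with G34V lowest of the mutants. The log2 change against WT was 1.00 (SE 0.036) in G34R, 0.81 (SE 0.037) in G34V and 0.76 (SE 0.037) in Set2D for spn5. It was 1.06 (SE 0.028) in G34R, 0.63 (SE 0.029) in G34V and 1.12 (SE 0.029) in Set2D for spn6. The gene crp79, for a poly(A)-binding protein, had mean levels of 12.03 ± 0.335 CPM in WT, against 23.7 ± 0.235 in G34R, 20.0 ± 0.546 in G34V and 23.4 ± 0.226 in Set2D, and it overlaps a gene of the same strand, so that its counts are uncertain.

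Among genes with other roles, zrt1, for the zinc transporter of the plasma membrane, was the one with the highest count. It had 449, 506 and 429 CPM in WT, 931, 899 and 900.1 in G34R, 953, 878 and 863 in G34V, with 1144, 1198 and 1171 in Set2D. Every mutant library held at least 1.5 times the highest WT value, and Set2D stood above both H3 mutants. Against WT the log2 changes came to 0.98 (SE 0.052) in G34R, 0.96 (SE 0.052) in G34V and 1.34 (SE 0.053) in Set2D (largest adjusted p 3.51e-09, edgeR). The difference between G34V and G34R was -0.02, with a 95% interval of -0.13 to 0.09. The kinase gene ppk31 rose by 0.70 (SE 0.026) in G34R, 0.67 (SE 0.027) in G34V and 1.04 (SE 0.026) in Set2D on the log2 scale. SPAC5H10.04, listed as an NADPH dehydrogenase, rose by 0.55 (SE 0.027) in G34R, 0.62 (SE 0.028) in G34V and 1.40 (SE 0.027) in Set2D, and SPCC417.12, of the type B carboxylesterase family, rose by 0.65 (SE 0.053) in G34R, 0.60 (SE 0.055) in G34V and 1.34 (SE 0.052) in Set2D. The gene SPBC28E12.02, for an RNA-binding protein of the BICC1 family, rose by 0.73 (SE 0.046) in G34R, 0.78 (SE 0.048) in G34V and 1.53 (SE 0.046) in Set2D. In these 4 genes Set2D was the highest mutant, and the test of Set2D against the mean of the H3 mutants called each one (highest adjusted p 1.16e-09, edgeR; 68.5% of tested genes were called there).

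Of the 15 genes, 4 resemble other genes over at least 100 bases at 90% identity, so reads could have been split among copies and their values are uncertain. These were SPCC569.01c and the neighbours SPAC212.04c, SPAC212.08c and SPAC212.12 at the left end of chromosome I. SPAC212.08c, for a GPI-anchored protein, had 1.98, 1.95 and 2.05 CPM in WT, 3.57, 3.71 and 3.70 in G34R, 6.83, 6.83 and 7.32 in G34V, with 18.5, 16.7 and 18.4 in Set2D. The mutants stood in the order G34R, G34V, Set2D with no overlap. Its log2 changes were 0.88 (SE 0.060) in G34R, 1.80 (SE 0.059) in G34V and 3.16 (SE 0.055) in Set2D. SPAC212.04c, of unknown product, rose by 0.98 (SE 0.040) in G34R, 1.33 (SE 0.040) in G34V and 1.16 (SE 0.040) in Set2D, and SPAC212.12, also GPI-anchored, rose by 0.77 (SE 0.052) in G34R, 1.74 (SE 0.052) in G34V and 1.54 (SE 0.052) in Set2D. The neighbours SPAC212.06c and SPAC212.03 were also called higher in all 3, which made a run of 5 coding genes side by side. SPCC569.01c rose by 1.02 (SE 0.025) in G34R, 1.20 (SE 0.025) in G34V and 0.66 (SE 0.025) in Set2D and was lowest in Set2D among the mutants.

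**Figure D1:**
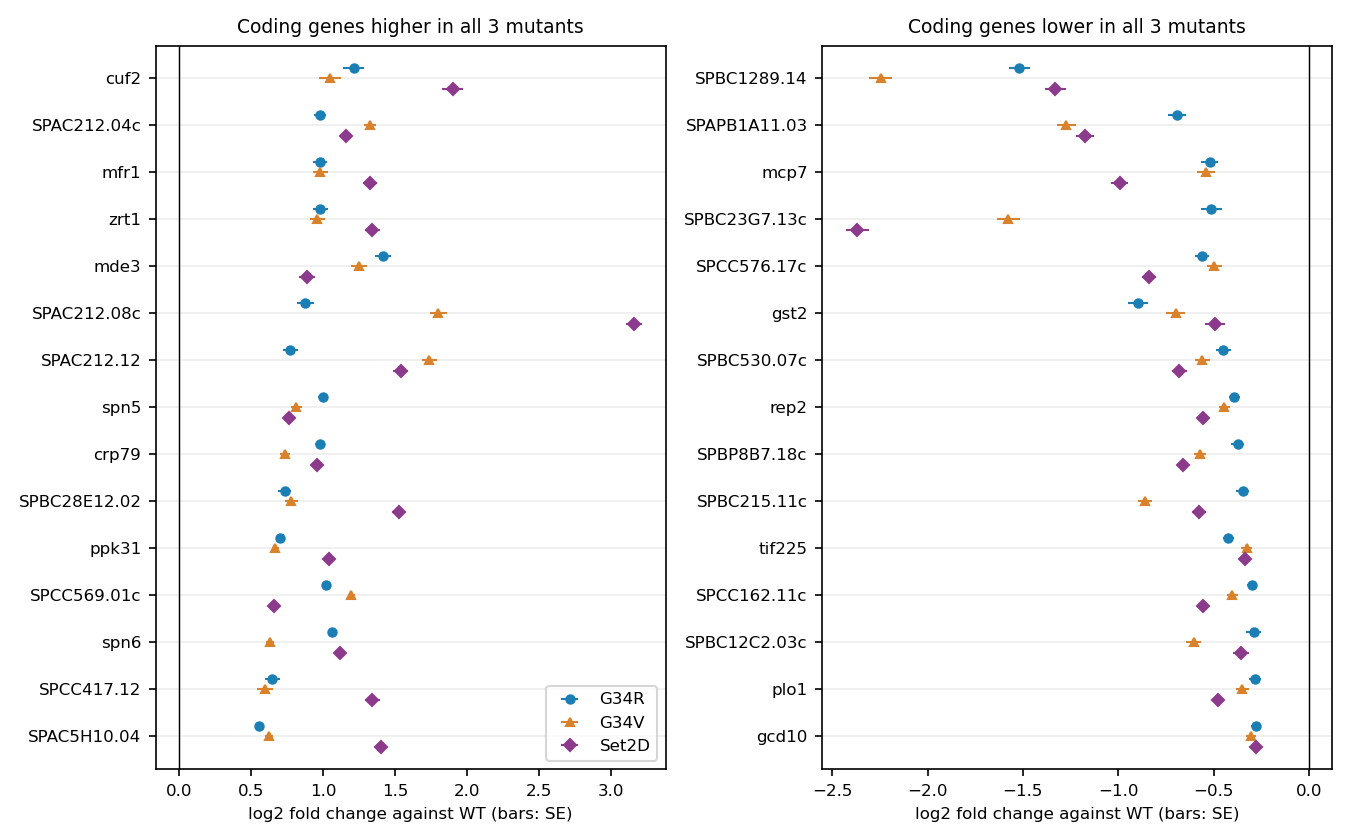
Log2 fold change against WT (x axis) of the 15 coding genes named as higher in all 3 mutants (left) and the 15 named as lower in all 3 (right), with points for G34R, G34V and Set2D and bars for the standard error. All points of a panel lie on 1 side of 0, as the choice of these genes requires. The distance between mutants within a gene is often several times the standard error, as for SPAC212.08c and SPBC23G7.13c.

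Lists of genes by role, chosen with earlier results of these data known, were described by how many of their tested members fell into each pattern, beside 6.14% higher in all 3, 10.1% lower in all 3 and 15.8% opposite among all 5048 tested coding genes. Of 25 genes of mating and targets of Ste11, the master regulator of mating, 10 were higher in all 3 mutants, 0 lower and 5 opposite. The median log2 change of the list was 0.28 in G34R, 0.17 in G34V and 0.13 in Set2D, against -0.03 in G34R, -0.02 in G34V and -0.04 in Set2D over all coding genes. Of 9 tested genes special to M-type cells, most of them also in the mating list, 6 were higher in all 3, namely mfm2, mam1, mam2, mam4, ste6 and sxa2. The receptor gene mam2, whose product binds the pheromone of P cells, had 24.1, 23.3 and 22.6 CPM in WT, 40.8, 41.7 and 41.9 in G34R, 37.9, 38.2 and 36.9 in G34V, with 30.6, 32.1 and 33.5 in Set2D. All 9 mutant libraries were above WT and G34R was highest. Relative to WT, the log2 changes were 0.83 (SE 0.034) in G34R, 0.69 (SE 0.035) in G34V and 0.46 (SE 0.035) in Set2D. The pheromone gene mfm2 had mean levels of 174 ± 10.0 CPM in WT, against 222 ± 6.66 in G34R, 231 ± 7.89 in G34V and 217 ± 5.21 in Set2D. The 3 mutants were not called different from each other in mfm2 (adjusted p 0.0976, edgeR), with 95% intervals of -0.02 to 0.14 for G34V minus G34R and -0.12 to 0.05 for Set2D minus G34R. Of 4 tested genes special to P-type cells, map4 was higher in all 3, map2 and map3 were higher in 2, and sxa1 was called in none. The G34R call of map4 did not hold without WT replicate 1 or 2, or G34R replicate 1 or 2 (adjusted p 0.0683 to 0.121, edgeR). The G34V call of map3 did not hold without WT replicate 2, or G34V replicate 1 or 2 (adjusted p 0.0868 to 0.114, edgeR). Medians were 0.07 in G34R, 0.12 in G34V and 0.18 in Set2D, against 0.43, 0.39 and 0.16 for the M-type genes.

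The regulators ste11 and mei2 of the mating list were called in opposite directions. The gene ste11 had 314, 329 and 318 CPM in WT, 397, 389 and 345 in G34R, 332, 279.7 and 259 in G34V, with 277, 255 and 243 in Set2D. G34R was high and Set2D low, and the G34V libraries lay on both sides of WT. Log2 fold changes were 0.24 (SE 0.089) in G34R, -0.14 (SE 0.089) in G34V and -0.31 (SE 0.089) in Set2D; the G34R call (adjusted p 0.0465, edgeR) did not hold without WT replicate 1, 2 or 3, or G34R replicate 1 or 2, or G34V replicate 2, or Set2D replicate 2 or 3 (adjusted p 0.0516 to 0.128, edgeR). The gene mei2, for the RNA-binding protein that starts meiosis, had 200.2, 202 and 190.3 CPM in WT, 248, 245 and 224 in G34R, 199.8, 185 and 183 in G34V, with 162, 159.9 and 162 in Set2D, higher in G34R and lower in Set2D with no overlap with WT. Against WT the log2 changes came to 0.28 (SE 0.039) in G34R, -0.06 (SE 0.040) in G34V and -0.29 (SE 0.040) in Set2D, and the G34V change was not called. The list's count of 5 opposite genes fell to 3 without WT replicate 1, without WT replicate 2 or without Set2D replicate 2.

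Of 24 genes of sporulation and middle meiosis, 10 were higher in all 3 mutants, 1 lower and 3 opposite, with medians of 0.22 in G34R, 0.21 in G34V and 0.30 in Set2D. Beside mfr1, mde3, spn5 and spn6, already described, these were mde5, mde7, spo6, meu6, meu10 and bgs2. Another meiotic septin gene, spn7, was the 1 lower in all 3, with log2 changes of -0.17 (SE 0.036) in G34R, -0.28 (SE 0.037) in G34V and -0.30 (SE 0.037) in Set2D; it overlaps a gene of the same strand. The transcription factor gene mei4, which drives this list, was called in no mutant. Of 23 genes of early meiosis 2 were higher in all 3, 2 lower and 5 opposite, with medians of 0.10 in G34R, -0.05 in G34V and -0.32 in Set2D; without WT replicate 3 the opposite genes were 3. One of the lower genes, mcp7, for a recombination accessory factor, had 44.5, 46.2 and 46.7 CPM in WT, 30.2, 31.5 and 33.8 in G34R, 30.3, 30.8 and 33.8 in G34V, with 22.9, 23.9 and 22.4 in Set2D, with all mutant libraries below WT and Set2D lowest.

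Of 13 genes of heat shock and chaperones, 6 were higher in all 3 mutants, 0 lower and 0 opposite, with medians of 0.08 in G34R, 0.13 in G34V and 0.29 in Set2D. They were hsp104, ssa1, hsp90, psi1, sti1 and wos2, and each had its largest change in Set2D. The disaggregase gene hsp104 had 474, 477 and 500.3 CPM in WT, 589, 624 and 593 in G34R, 621, 640.5 and 615 in G34V, with 869.7, 840.1 and 901 in Set2D. The H3 mutants stood above WT and Set2D above the H3 mutants, without overlap. Its log2 changes were 0.32 (SE 0.035) in G34R, 0.37 (SE 0.035) in G34V and 0.85 (SE 0.035) in Set2D (largest adjusted p 2.8e-06, edgeR). Of 18 tested genes of the core environmental stress response, 1 was higher in all 3, 1 lower and 2 opposite.

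**Figure D2:**
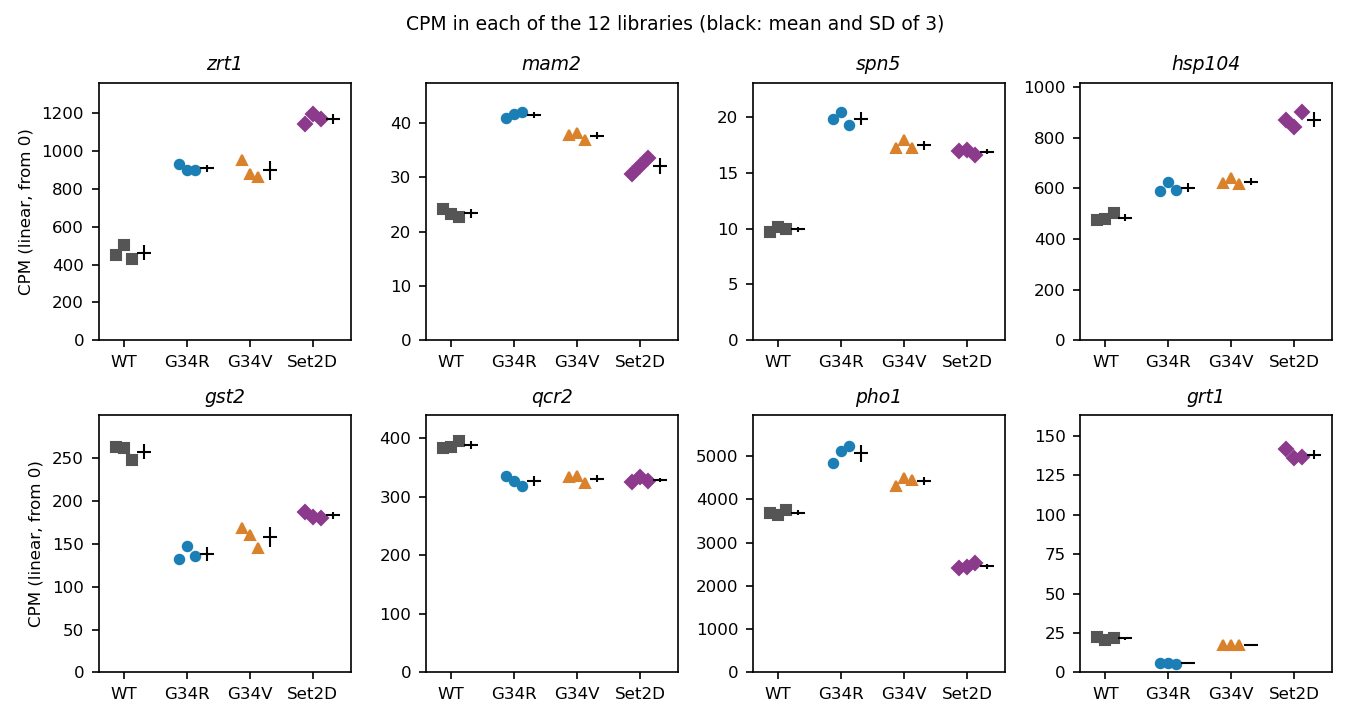
CPM (y axis, linear from 0) of 8 genes in each of the 12 libraries, grouped on the x axis as WT, G34R, G34V and Set2D, with the mean and SD of each group in black. In zrt1, mam2, spn5 and hsp104 all 9 mutant libraries lie above WT, in gst2 and qcr2 all 9 lie below, and in pho1 and grt1 the Set2D libraries lie on the other side of WT from G34R.

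Genes of the respiratory chain, of ergosterol synthesis and of entry into S phase were among those that fell in all 3 mutants. Of 35 nuclear genes of the respiratory chain, 18 were lower in all 3, 0 higher and 1 opposite. The medians were small, -0.10 in G34R, -0.10 in G34V and -0.15 in Set2D. The gene qcr2, for a core subunit of the cytochrome bc1 complex, had 383, 385 and 396 CPM in WT, 336, 328 and 318 in G34R, 333, 335 and 324 in G34V, with 326, 333 and 327 in Set2D. All 9 mutant libraries were below WT and the groups of mutants overlapped each other; qcr2 overlaps a gene of the same strand. Relative to WT, the log2 changes were -0.25 (SE 0.026) in G34R, -0.23 (SE 0.026) in G34V and -0.24 (SE 0.026) in Set2D (largest adjusted p 4.83e-06, edgeR), and the pairwise differences had 95% intervals of -0.04 to 0.07, -0.05 to 0.06 and -0.06 to 0.05. The cytochrome oxidase gene cox5 changed by -0.17 (SE 0.026) in G34R, -0.18 (SE 0.026) in G34V and -0.20 (SE 0.026) in Set2D. The count of 18 depends on the setting: it was 7 with upper quartile scaling, 6 with protein-coding genes fitted alone and 11 without G34R replicate 3. Over all 5048 coding genes, the 511 lower in all 3 became 302, 317 and 446 in these settings.

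Of 23 genes of ergosterol synthesis and its regulator Sre1, 7 were lower in all 3, 0 higher and 2 opposite, with medians of -0.09 in G34R, -0.05 in G34V and -0.15 in Set2D. The squalene monooxygenase gene erg1 had mean levels of 94.96 ± 2.52 CPM in WT, against 78.1 ± 1.59 in G34R, 82.5 ± 2.70 in G34V and 65.3 ± 2.33 in Set2D, and fell furthest in Set2D. With coding genes fitted alone, 4 of the 7 were called, and the 511 of all coding genes lower in all 3 became 317. Of 17 targets of MBF, the factor that drives genes of the start of S phase, 4 were lower in all 3, 0 higher and 2 opposite, with medians of -0.14 in G34R, -0.26 in G34V and -0.12 in Set2D. They were cig2, ctp1, dut1 and rep2. The gene rep2, for an activating subunit of MBF, had 132, 134 and 141 CPM in WT, 105, 101 and 105 in G34R, 98.6, 99.8 and 101 in G34V, with 92.9, 94.5 and 89.5 in Set2D. Mutant and WT libraries did not overlap. Log2 fold changes were -0.39 (SE 0.028) in G34R, -0.44 (SE 0.028) in G34V and -0.56 (SE 0.028) in Set2D (largest adjusted p 3.6e-08, edgeR). In the same list 2 genes were lower in all 3 with upper quartile scaling, with coding genes alone or without WT replicate 2. Over all coding genes, the 511 became 302, 317 and 442 in these settings.

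Among single genes that fell, SPBC1289.14, listed as an adducin and lying near the right end of chromosome II, fell furthest. It had 59.6, 55.9 and 63.8 CPM in WT, 19.8, 20.9 and 21.7 in G34R, 12.4, 12.4 and 13.2 in G34V, with 22.8, 22.5 and 25.7 in Set2D. Every mutant library was far below WT, and G34V was lowest. Against WT the log2 changes came to -1.52 (SE 0.055) in G34R, -2.25 (SE 0.060) in G34V and -1.33 (SE 0.056) in Set2D, which made it the 1 gene lower at least 2-fold in each mutant. SPAPB1A11.03, listed as a cytochrome-type L-lactate dehydrogenase, was the other gene lower at least 1.5-fold in each, both named because the counts were seen to be small, with log2 changes of -0.69 (SE 0.046) in G34R, -1.27 (SE 0.050) in G34V and -1.17 (SE 0.049) in Set2D. The glutathione S-transferase gene gst2 had 263, 262 and 248 CPM in WT, 132, 147 and 135 in G34R, 169, 161 and 145 in G34V, with 187, 181 and 181 in Set2D. It was lowest in G34R, with log2 changes of -0.90 (SE 0.052) in G34R, -0.70 (SE 0.052) in G34V and -0.49 (SE 0.052) in Set2D and a difference of Set2D from G34R of 0.40 (95% interval 0.29 to 0.52).

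A pair of genes of thiamine metabolism fell in all 3. SPBP8B7.18c, for a phosphomethylpyrimidine kinase, had 782, 752 and 766 CPM in WT, 617, 578 and 579.6 in G34R, 510.0, 514 and 523 in G34V, with 499.9, 477 and 477 in Set2D, in the order WT, G34R, G34V, Set2D by mean. Its log2 changes were -0.37 (SE 0.032) in G34R, -0.57 (SE 0.032) in G34V and -0.66 (SE 0.032) in Set2D. SPBC530.07c, of the TENA/THI family, had log2 changes of -0.45 (SE 0.039) in G34R, -0.56 (SE 0.039) in G34V and -0.68 (SE 0.039) in Set2D. The Polo kinase gene plo1, needed in mitosis, changed by -0.28 (SE 0.031) in G34R, -0.35 (SE 0.032) in G34V and -0.48 (SE 0.032) in Set2D. The gene tif225, for the epsilon subunit of the initiation factor eIF2B, changed by -0.42 (SE 0.030) in G34R, -0.33 (SE 0.031) in G34V and -0.33 (SE 0.030) in Set2D.

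The remaining genes of the 15 were mostly enzymes and transporters. SPBC23G7.13c, listed as a urea transporter, had mean levels of 53.8 ± 3.97 CPM in WT, against 37.7 ± 2.12 in G34R, 18.0 ± 0.0676 in G34V and 10.3 ± 0.749 in Set2D. SPCC576.17c (a pyridoxine transporter), SPCC162.11c (a uridine kinase), SPBC215.11c (an aldo-keto reductase) and SPBC12C2.03c (a methionine synthase reductase) had log2 changes between -0.86 and -0.29. The gene gcd10 was listed as a translation initiation factor subunit and had 80.3, 82.3 and 77.3 CPM in WT, 64.8, 65.9 and 66.8 in G34R, 64.2, 64.0 and 66.0 in G34V, with 66.2, 65.8 and 65.8 in Set2D, with the 3 mutants at one level below WT. Relative to WT, the log2 changes were -0.28 (SE 0.025) in G34R, -0.31 (SE 0.026) in G34V and -0.28 (SE 0.025) in Set2D, the difference among mutants was not called (adjusted p 0.556, edgeR), and the pairwise 95% intervals were -0.08 to 0.03, -0.05 to 0.06 and -0.03 to 0.08. Each of these 15 genes also kept its call in each mutant with any 1 library left out.

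A shared direction did not mean a shared size. The 3 mutants differed in 5344 genes (80.9% of those tested, edgeR F-test of the difference among mutants), and among the 739 genes higher in all 3 this test called 575 and left 164. Set2D had the largest change in 525 of the 739, G34R in 113 and G34V in 101. The medians of the log2 change over the 739 were 0.31 in G34R, 0.32 in G34V and 0.53 in Set2D. Among the 536 lower genes the test called 375 and left 161, Set2D had the largest change in 301, G34R in 120 and G34V in 115, and the medians were -0.15 in G34R, -0.15 in G34V and -0.20 in Set2D. Against the mean of the other mutants, G34R was called in 4234 genes (64.1%), G34V in 3369 (51.0%) and Set2D in 4521 (68.5%). Of the 292 tested coding genes with a mean under 10 CPM, 12.3% rose in all 3 and 3.42% fell, and of the 2084 at 100 CPM or more, 3.79% rose and 11.9% fell. The balance of the 310 coding genes higher and 511 lower turned with the scaling, to 403 and 302 with upper quartile scaling and to 425 and 317 with coding genes fitted alone.

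Most genes called in opposite directions had Set2D on 1 side and an H3 mutant on the other. The largest classes were 188 genes higher in Set2D and lower in G34R, 186 higher in G34R and lower in Set2D, and 95 higher in G34V and Set2D but lower in G34R. Another 87 genes were higher in Set2D and lower in both H3 mutants, and 87 were higher in both H3 mutants and lower in Set2D. G34R and G34V were called in opposite directions with no call in Set2D in 36 and 33 genes.

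The transcription factor gene grt1, near the left end of chromosome II, was the leading example. It had 22.3, 20.7 and 22.0 CPM in WT, 6.02, 5.71 and 5.50 in G34R, 17.6, 17.7 and 17.5 in G34V, with 141, 136 and 137 in Set2D. All Set2D libraries were above WT and all libraries of both H3 mutants were below it. Log2 fold changes were -1.93 (SE 0.038) in G34R, -0.30 (SE 0.036) in G34V and 2.67 (SE 0.033) in Set2D, so that the mean over the mutants was 0.15. SPAC186.09, listed as a pyruvate decarboxylase, had 3.91, 3.82 and 3.84 CPM in WT, 2.06, 1.87 and 1.75 in G34R, 1.90, 1.83 and 1.93 in G34V, with 15.5, 15.2 and 16.7 in Set2D, low in both H3 mutants and high in Set2D. Its mean over the mutants was -0.01 and was not called (adjusted p 0.824, edgeR). The haem uptake gene shu1 had log2 changes of -1.10 (SE 0.11) in G34R, -1.20 (SE 0.12) in G34V and 1.29 (SE 0.093) in Set2D. The helicase gene tlh2, which has near-identical copies next to the telomeres so that its counts are uncertain, had log2 changes of -0.64 (SE 0.078) in G34R, -1.53 (SE 0.089) in G34V and 1.7 (SE 0.075) in Set2D.

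In some genes of opposite direction the H3 mutants lay on different sides of WT. SPBPB2B2.01, for an amino acid permease, had 29.1, 29.9 and 25.0 CPM in WT, 13.4, 11.8 and 10.8 in G34R, 38.6, 36.3 and 34.2 in G34V, with 106, 102 and 101 in Set2D, with G34R below WT and both other mutants above. The alanine racemase gene alr2 did the same, with log2 changes of -1.0 (SE 0.048) in G34R, 0.44 (SE 0.047) in G34V and 0.76 (SE 0.047) in Set2D. SPAC869.09, of the Con-6 family, was higher in Set2D and lower in G34V, with log2 changes of 0.22 (SE 0.087) in G34R, -1.01 (SE 0.10) in G34V and 1.41 (SE 0.085) in Set2D; its call in G34R did not hold without WT replicate 1, 2 or 3, or G34R replicate 1 or 2, or G34V replicate 1 or 2, or Set2D replicate 1, 2 or 3 (adjusted p 0.0514 to 0.18, edgeR). In the other genes named for opposite directions, the H3 mutants moved to the same side or G34V was not called. The pheromone gene mfm1 had 51.1, 55.2 and 47.9 CPM in WT, 103, 123 and 121 in G34R, 68.5, 66.6 and 73.2 in G34V, with 23.1, 25.9 and 27.2 in Set2D, raised in both H3 mutants and lowered in Set2D without overlap with WT. Against WT the log2 changes came to 1.17 (SE 0.081) in G34R, 0.43 (SE 0.083) in G34V and -1.01 (SE 0.087) in Set2D, although mfm2 rose in all 3; mfm1 shares sequence with another gene and its counts are uncertain. The poly(A) polymerase gene cid11 had log2 changes of 0.79 (SE 0.053) in G34R, -0.04 (SE 0.058) in G34V and -1.10 (SE 0.063) in Set2D, and its G34V change was not called. The hexose transporter gene ght7 changed by -0.91 (SE 0.17) in G34R, -0.19 (SE 0.17) in G34V and 2.64 (SE 0.13) in Set2D, SPCP20C8.02c, of unknown product and similar to another gene, by -1.11 (SE 0.057) in G34R, -0.12 (SE 0.056) in G34V and 1.39 (SE 0.051) in Set2D, and SPAC186.02c, listed as a hydroxyacid dehydrogenase, by -0.28 (SE 0.093) in G34R, -0.99 (SE 0.12) in G34V and 3.57 (SE 0.071) in Set2D. The G34V changes of ght7 and SPCP20C8.02c were not called, and the G34R call of SPAC186.02c did not hold without WT replicate 1, or G34R replicate 3 (adjusted p 0.0718 to 0.103, edgeR).

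**Figure D3:**
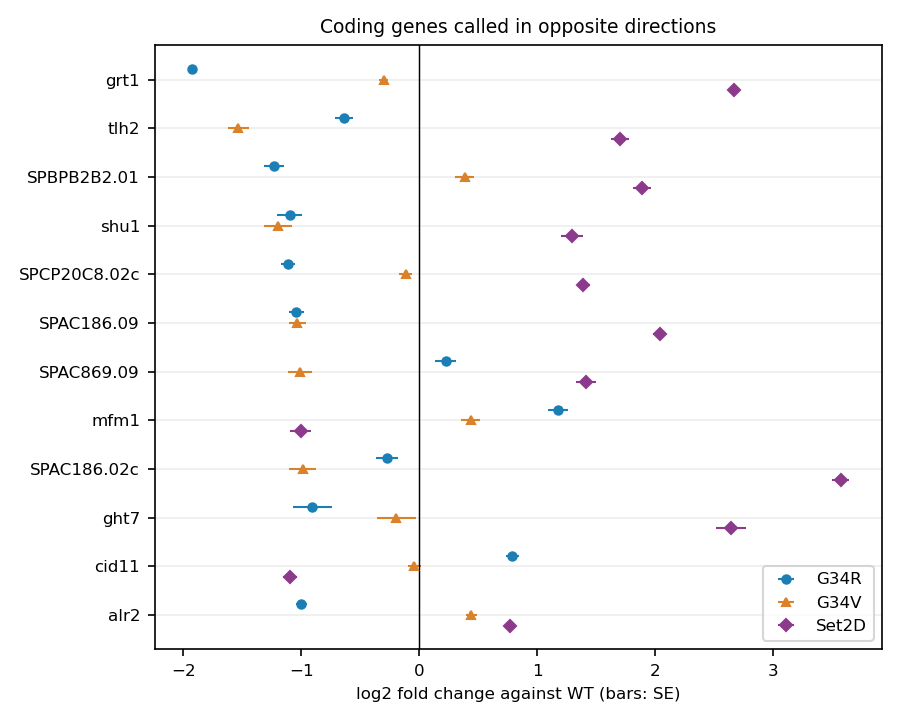
Log2 fold change against WT (x axis) of the 12 coding genes named as called in opposite directions, with points for G34R, G34V and Set2D and bars for the standard error. Set2D lies right of 0 in 10 of the 12 genes and left of it in mfm1 and cid11, where G34R lies right.

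Some lists held many such genes. Their overlap with the genes near the chromosome ends, described below, was not counted. Of 12 genes of hexose transport and galactose use, 7 were opposite and 0 moved the same way in all 3. The medians were -0.22 in G34R, -0.17 in G34V and 0.34 in Set2D. In the galactose cluster, gal10, for the epimerase, had 45.4, 44.9 and 41.3 CPM in WT, 27.7, 28.7 and 23.0 in G34R, 41.4, 36.7 and 35.9 in G34V, with 102, 87.7 and 90.7 in Set2D. G34R libraries were below WT and Set2D libraries above it, while G34V libraries overlapped the lowest WT library. Its log2 changes were -0.73 (SE 0.093) in G34R, -0.20 (SE 0.093) in G34V and 1.09 (SE 0.090) in Set2D, with the G34V change not called. The genes pan5, gal7, SPBPB2B2.11, gal10, gal1 and SPBPB2B2.14c formed a run of 6 neighbouring coding genes that were all opposite. The melibiase gene mel1 had log2 changes of -0.58 (SE 0.084) in G34R, -0.15 (SE 0.087) in G34V and 2.94 (SE 0.073) in Set2D.

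Of 6 genes of phosphate starvation, 4 were opposite, 1 higher and 0 lower. The secreted acid phosphatase gene pho1 had 3684, 3629.7 and 3751 CPM in WT, 4839, 5106 and 5226 in G34R, 4312, 4491 and 4439.7 in G34V, with 2406, 2424 and 2522 in Set2D, with both H3 mutants above WT and Set2D below. Relative to WT, the log2 changes were 0.46 (SE 0.038) in G34R, 0.26 (SE 0.038) in G34V and -0.59 (SE 0.039) in Set2D. The transporter genes pho84, which overlaps a gene of the same strand, and tgp1 had log2 changes of 0.36 (SE 0.054) in G34R, 0.15 (SE 0.054) in G34V and -0.41 (SE 0.054) in Set2D and of 0.19 (SE 0.028) in G34R, 0.28 (SE 0.028) in G34V and -0.39 (SE 0.029) in Set2D, respectively; the G34V call of pho84 did not hold without WT replicate 2 or 3, or G34V replicate 2 or 3 (adjusted p 0.0694 to 0.162, edgeR). The gene vtc4, for polyphosphate synthesis, was the 1 that rose in all 3, by 0.15 (SE 0.029) in G34R, 0.16 (SE 0.029) in G34V and 0.12 (SE 0.029) in Set2D.

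Of 14 genes of nitrogen starvation, 7 were opposite, 2 higher in all 3 and 3 lower in all 3. The proline transporter gene put4 had 52.5, 49.8 and 48.1 CPM in WT, 36.7, 34.1 and 33.5 in G34R, 49.4, 49.4 and 43.2 in G34V, with 90.6, 95.9 and 93.8 in Set2D, below WT in G34R and above it in Set2D. The amino acid permease gene aat1 was below WT in G34R and above it in both G34V and Set2D, with log2 changes of -0.39 (SE 0.032) in G34R, 0.56 (SE 0.032) in G34V and 0.55 (SE 0.032) in Set2D. The ammonium transporter gene amt1 and the vacuolar transporter genes fnx1 and fnx2 were those lower in all 3. Amino acid synthesis had 11 opposite, 2 lower and 0 higher of 37 tested, with medians of -0.07 in G34R, 0.06 in G34V and -0.33 in Set2D. In arg4, for carbamoyl-phosphate synthase of arginine synthesis, the values were 1484, 1361 and 1467 CPM in WT, 1357, 1334 and 1398 in G34R, 1544, 1626 and 1552 in G34V, with 796, 799.7 and 869 in Set2D. Set2D was far below WT. Log2 fold changes were -0.08 (SE 0.043) in G34R, 0.13 (SE 0.043) in G34V and -0.81 (SE 0.043) in Set2D; the G34V call did not hold without WT replicate 2, or G34V replicate 2 (adjusted p 0.0867 to 0.1, edgeR). Without WT replicate 2, 7 genes of the list were opposite.

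Genes near the chromosome ends were called in opposite directions in 74 of 142 (52.1%), where the 40 outermost coding genes of each end of chromosomes I and II were taken. Another 14 were higher in all 3 mutants and 3 lower. The medians of the 142 were -0.18 in G34R, 0.17 in G34V and 1.45 in Set2D, against -0.03 in G34R, -0.02 in G34V and -0.04 in Set2D over all coding genes. The right end of chromosome I had 23 opposite of 37 and 0 shared in either direction, while the left end had 15 opposite and 7 higher in all 3 of 37. At the ends of chromosome II, 15 of 32 on the left and 21 of 36 on the right were opposite. Runs of neighbours with the same pattern lay there: SPAC186.05c to SPAC750.01 and SPAC869.02c to SPAC186.03 at the right end of chromosome I, and SPBC1348.12 to fah1, which holds grt1 and ght7, at the left end of chromosome II. The numbers of such runs that arise without any link between neighbours were not tested.

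**Figure D4:**
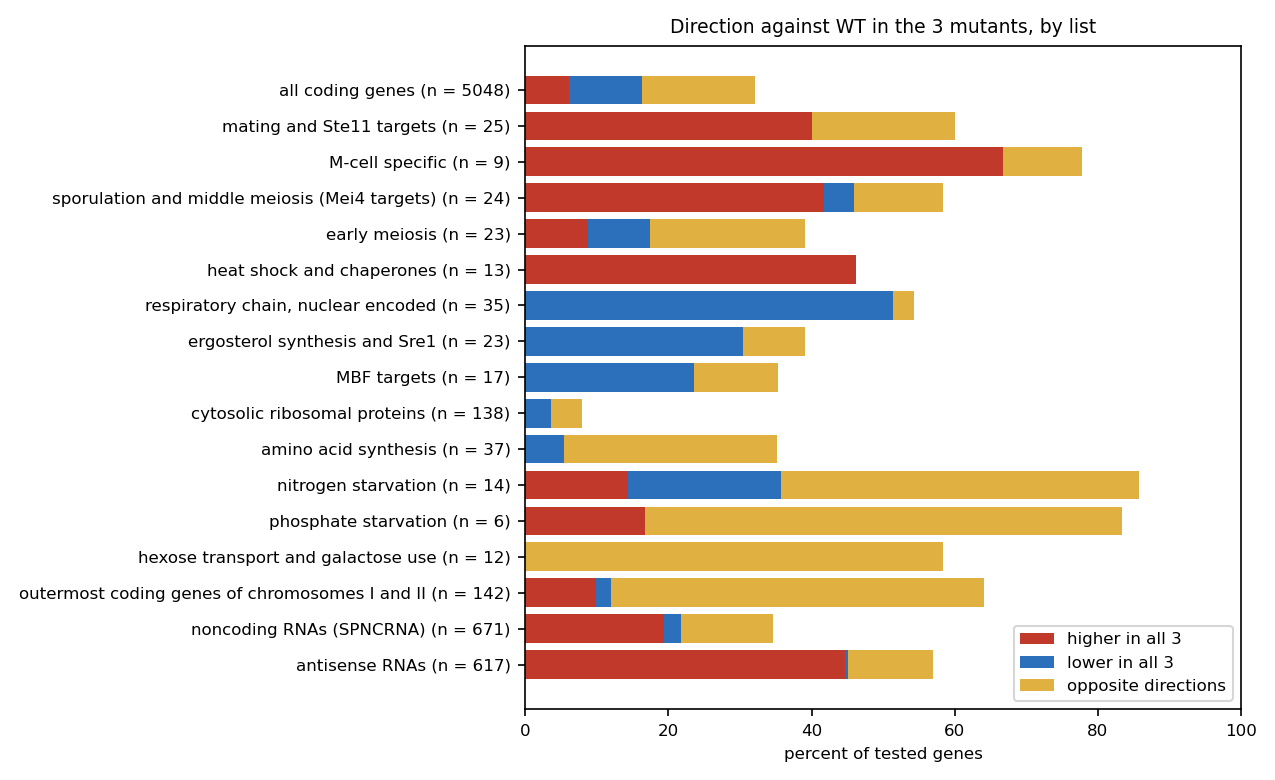
Percent of tested genes (x axis) in each list that were higher in all 3 mutants, lower in all 3, or called in opposite directions, with the number tested beside each list name; the remainder of each bar up to 100% was called in fewer mutants or in none. Higher shares were 44.7% in antisense RNAs and 46.2% in heat shock genes, and opposite shares were 52.1% at the chromosome ends, against 6.14% and 15.8% of all coding genes.

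The 4 coding genes named for the largest difference of Set2D from the mean of the H3 mutants all lay at the right end of chromosome I, with other genes between some of them. The gene SPAC869.04, for a formamidase-like protein, had 0.486, 0.553 and 0.629 CPM in WT, 0.592, 0.526 and 0.539 in G34R, 0.968, 0.777 and 0.874 in G34V, with 59.6, 57.4 and 58.2 in Set2D. Every WT, G34R and G34V library was below 1 CPM and every Set2D library far above. Its log2 change was 6.69 (SE 0.065) in Set2D and 0.66 (SE 0.11) in G34V against WT, both called. Set2D differed from the mean of the H3 mutants by 6.39 (adjusted p 1.09e-20, edgeR). Genes named for 1 mutant were chosen by such a difference among genes called in it, so its p-value is no separate support. SPAC869.04 passed the bound of 5 CPM through Set2D alone. The genes SPAC186.03 (an L-asparaginase with 1 similar gene, so its counts are uncertain), SPAC869.03c (listed as a urea transporter) and SPAC869.01 (an amidase) differed from the mean of the H3 mutants by 6.33, 5.38 and 5.35. SPAC869.03c was called against WT in Set2D alone, with changes of 0.04 in G34R and 0.26 in G34V and a 95% interval of -0.10 to 0.54 for G34V minus G34R. The calls of SPAC186.03 and SPAC869.01 in the H3 mutants did not hold when some single libraries were left out. For SPAC186.03 the G34R call did not hold without WT replicate 3 (adjusted p 0.0548, edgeR) and the G34V call did not hold without WT replicate 1 or 2, or G34V replicate 1 or 3 (adjusted p 0.0668 to 0.185, edgeR). For SPAC869.01 the G34R call did not hold without WT replicate 1, 2 or 3, or G34R replicate 1 or 3 (adjusted p 0.0544 to 0.195, edgeR) and the G34V call did not hold without G34V replicate 2 (adjusted p 0.0741, edgeR).

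Against the mean of the other mutants, G34R was called in pfl9, for a surface glycoprotein of the DIPSY family, and in SPBC1348.06c. The gene pfl9 had 2.45, 2.29 and 2.34 CPM in WT, 2.03, 1.71 and 1.94 in G34R, 6.17, 6.54 and 6.63 in G34V, with 66.1, 69.3 and 68.5 in Set2D, rising from G34R over WT and G34V to Set2D. G34R differed from the mean of the other mutants by -3.47, with Set2D by far the highest mutant, but from WT by -0.33. SPBC1348.06c, with a Vel1p domain and similar to other genes, was called in G34R with a log2 change of 0.53 that did not hold without WT replicate 1 or 3, or G34R replicate 2 or 3, or G34V replicate 1 or 3, or Set2D replicate 3 (adjusted p 0.0547 to 0.179, edgeR). G34V differed from the mean of the other mutants by -2.64 in SPAC186.02c and by -2.12 in SPAC186.08c, listed as an L-lactate dehydrogenase. The latter had mean levels of 0.878 ± 0.160 CPM in WT, against 0.590 ± 0.0677 in G34R, 0.586 ± 0.0961 in G34V and 11.6 ± 0.690 in Set2D, and its G34V call against WT did not hold without WT replicate 1 (adjusted p 0.0523, edgeR). The G34R and G34V means of SPAC186.08c were nearly equal, and it passed the bound of 5 CPM through Set2D alone. In both genes Set2D was far above both H3 mutants, so these differences of G34V rest mostly on Set2D.

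The Tf2 retrotransposons are near-identical copies, so the values of single copies are uncertain. Of 12 tested, 1 was lower in all 3 and 5 were opposite, and all 12 were lower in Set2D. Tf2-11 had 706, 702 and 744 CPM in WT, 626, 667 and 649 in G34R, 409, 411 and 378 in G34V, with 151, 155 and 158 in Set2D, in the order WT, G34R, G34V, Set2D. Tf2-13 had 2.03, 2.00 and 1.92 CPM in WT, 2.37, 2.41 and 2.47 in G34R, 92.6, 86.0 and 81.7 in G34V, with 0.821, 0.541 and 0.806 in Set2D, far higher in G34V than in the other groups, and G34V differed there from the mean of the other mutants by 6.02 (adjusted p 2.53e-19, edgeR). The number of opposite copies was 9 without G34R replicate 1 and with limma voom.

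Noncoding RNA made up much of what rose in all 3 mutants. Of 617 tested antisense RNAs, annotated on the strand opposite a coding gene, 276 were higher in all 3 (44.7%), 2 lower and 74 opposite. Of 671 other noncoding RNAs of the SPNCRNA series, 130 were higher in all 3 (19.4%), 16 lower (2.38%) and 86 opposite (12.8%). Over all tested genes these shares were 11.2%, 8.12% and 15%. The opposite share of the antisense RNAs was 12%, so in both classes it lay below that of all genes. Coding genes gave 310 of the 739 shared higher genes and 511 of the 536 shared lower genes. The medians of the antisense RNAs were 0.27 in G34R, 0.23 in G34V and 0.54 in Set2D, against 0.00 in G34R, -0.01 in G34V and -0.01 in Set2D over all 6602 genes.

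Antisense RNAs took 0.668, 0.681 and 0.686% of the gene counts in the 3 WT libraries. They took 0.796, 0.818 and 0.820% in G34R, 0.810, 0.802 and 0.832% in G34V, with 1.08, 1.08 and 1.05% in Set2D. All 9 mutant libraries were above WT, the H3 mutants overlapped each other and Set2D was highest. The mean over mutants was 1.32 times WT (exact two-sided permutation test over 220 splits of 9 against 3 libraries, p = 0.00909, adjusted 0.0364 over 12 measures). SPNCRNA genes took a mean of 0.575 ± 0.00614% in WT, against 0.644 ± 0.0175% in G34R, 0.693 ± 0.00858% in G34V and 0.658 ± 0.0166% in Set2D (SD, n = 3 each; exact permutation p = 0.00455, the smallest that 220 splits allow, adjusted 0.0364). Reads outside annotated genes were also raised, at 2.02 ± 0.0204% of all reads in WT, against 2.42 ± 0.0263% in G34R, 2.38 ± 0.0526% in G34V and 3.26 ± 0.0506% in Set2D. The mean over mutants was 1.33 times WT (exact permutation p = 0.00909, adjusted 0.0364), and its part in the antisense result was not tested. These p-values treat the 9 mutant libraries as exchangeable, although they come from 3 genotypes. For antisense RNAs and reads outside annotated genes, p was above the smallest possible although all 9 mutant libraries lay above WT. In both, the split with the 3 Set2D libraries as 1 side gave a larger difference than WT against the mutants.

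**Figure D5:**
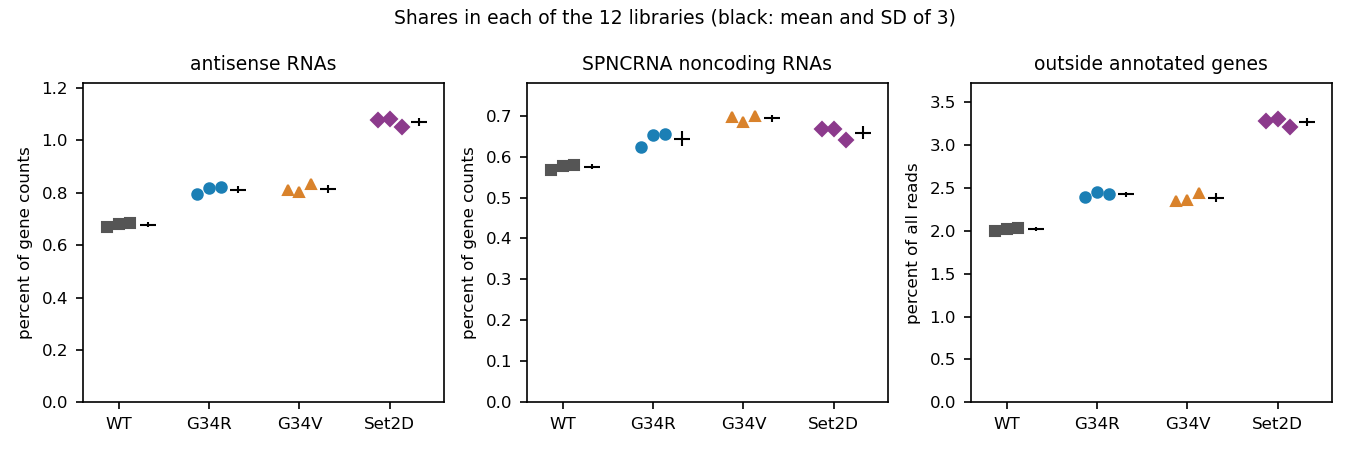
Share of counts (y axis, percent, from 0) in each of the 12 libraries, grouped on the x axis as WT, G34R, G34V and Set2D, with the mean and SD of each group in black: antisense RNAs and SPNCRNA genes as a percent of the counts in genes, and reads outside annotated genes as a percent of all reads. In each panel all 9 mutant libraries lie above the 3 WT libraries, and in the outer panels Set2D lies highest.

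The antisense RNA of dph2, a gene of diphthamide synthesis, had 5.41, 5.75 and 5.84 CPM in WT, 9.86, 10.2 and 10.5 in G34R, 13.8, 13.8 and 14.7 in G34V, with 18.5, 19.0 and 18.5 in Set2D. The mutants stood in the order G34R, G34V, Set2D without overlap. Against WT the log2 changes came to 0.85 (SE 0.044) in G34R, 1.31 (SE 0.045) in G34V and 1.72 (SE 0.044) in Set2D, while its sense gene dph2 was called in no mutant, with changes of -0.04 (SE 0.029) in G34R, 0.01 (SE 0.030) in G34V and -0.07 (SE 0.030) in Set2D. The antisense RNA of SPBP8B7.18c had 3.10, 3.20 and 3.25 CPM in WT, 4.71, 6.08 and 5.78 in G34R, 6.31, 5.83 and 5.95 in G34V, with 11.1, 11.1 and 10.8 in Set2D, and here the sense RNA fell in all 3, as given above. The antisense RNA of dhc1, the dynein heavy chain gene, rose by 1.01 (SE 0.071) in G34R, 0.94 (SE 0.074) in G34V and 0.78 (SE 0.074) in Set2D, and dhc1 itself also rose, by 0.16 (SE 0.021) in G34R, 0.26 (SE 0.022) in G34V and 0.14 (SE 0.022) in Set2D.

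The antisense RNAs that rose in all 3 and had a tested sense gene numbered 240. Their sense gene was lower in all 3 for 30 (12.5%), higher in all 3 for 18 (7.5%) and opposite for 38 (15.8%). Among all coding genes these shares were 10.1%, 6.14% and 15.8%. The median log2 change in the mean of the mutants was 0.55 for these antisense RNAs and -0.03 for their sense genes. In that mean, 97 of the 240 sense genes were lower (40.4%, against 39.4% of all coding genes) and 73 higher (30.4% against 21%). All coding genes are not the sense genes of the other antisense RNAs. Where the antisense RNA was higher in 2 mutants, 10 sense genes were lower in all 3, 10 higher and 32 opposite. The others were 47 called in 1 mutant, 12 higher in 2, 15 lower in 2 and 14 called in none. Where the antisense RNA was called in 1 mutant, 5 sense genes were lower in all 3, 7 higher and 13 opposite. There the others were 20 called in 1 mutant, 9 higher in 2, 10 lower in 2 and 10 called in none. In both groups the share lower in all 3 was below 12.5% and the opposite share above 15.8%. A link between sense and antisense changes was not tested. The antisense RNA of grt1 had 8.06, 8.06 and 8.14 CPM in WT, 3.45, 3.42 and 3.38 in G34R, 12.01, 10.3 and 11.5 in G34V, with 56.4, 54.0 and 52.1 in Set2D and, like its sense gene, was lower in G34R and higher in Set2D, but it was higher in G34V, where grt1 was lower. The antisense RNA of SPAC869.09 had log2 changes of -0.73 (SE 0.080) in G34R, 0.53 (SE 0.076) in G34V and 3.31 (SE 0.061) in Set2D. The 2 antisense RNAs lower in all 3 were those of SPAC8E11.08c and aah2, and neither kept all its calls. The call of SPAC8E11.08c-antisense-1 in G34V did not hold without WT replicate 1, 2 or 3, or G34R replicate 2, or G34V replicate 1 or 2 (adjusted p 0.0514 to 0.174, edgeR), and that of aah2-antisense-1 in G34R did not hold without WT replicate 2 (adjusted p 0.0514, edgeR).

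Among other noncoding RNAs, SPNCRNA.871 had 6.65, 6.71 and 6.16 CPM in WT, 11.8, 13.8 and 12.9 in G34R, 15.0, 15.8 and 16.3 in G34V, with 21.8, 22.3 and 21.6 in Set2D, with no overlap of groups. SPNCRNA.1622 rose by 0.86 (SE 0.055) in G34R, 0.76 (SE 0.057) in G34V and 1.60 (SE 0.055) in Set2D, and prl43 rose by 0.68 (SE 0.073) in G34R, 0.71 (SE 0.077) in G34V and 0.80 (SE 0.075) in Set2D. In prl43 the mutants were not called different (adjusted p 0.298, edgeR), with a 95% interval of -0.04 to 0.27 for Set2D minus G34R. SPNCRNA.397 fell in all 3, with log2 changes of -0.41 (SE 0.064) in G34R, -1.27 (SE 0.071) in G34V and -0.94 (SE 0.068) in Set2D, as did SPNCRNA.1120 with -0.25 (SE 0.056) in G34R, -0.78 (SE 0.061) in G34V and -1.28 (SE 0.063) in Set2D and SPNCRNA.976 with -0.26 (SE 0.039) in G34R, -0.25 (SE 0.041) in G34V and -0.36 (SE 0.041) in Set2D. SPNCRNA.287 and SPNCRNA.601, which resemble other genes, were lower in G34R and higher in Set2D, with log2 changes of -1.38 (SE 0.11) in G34R, 0.69 (SE 0.091) in G34V and 3.42 (SE 0.075) in Set2D and of -1.30 (SE 0.096) in G34R, 0.63 (SE 0.084) in G34V and 2.70 (SE 0.074) in Set2D, respectively.

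In the remaining lists the counts were small, and some shares lay above and some below those of all coding genes given before. Of 7 genes of Set2 and Clr6 complex II, alp13 and pst2 were higher in all 3 (28.6%), with log2 changes of 0.11 (SE 0.022) in G34R, 0.19 (SE 0.022) in G34V and 0.25 (SE 0.022) in Set2D for alp13, and prw1 was lower (14.3%). Of 16 genes of transcription elongation and histone chaperones 3 were lower in all 3 and 0 higher. The elongation factor gene spt5 had 249, 248 and 239 CPM in WT, 216, 217 and 221 in G34R, 207, 216 and 212 in G34V, with 162, 152 and 159 in Set2D, lowest in Set2D. Of 21 genes of heterochromatin and RNA interference 4 were higher in all 3 (19%) and 1 lower, and 1 was higher without WT replicate 1. Of 10 tested histone genes, among them those of the variants pht1 and cnp1, 1 was lower in all 3 and 2 opposite, htb1 and cnp1.

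Of 138 genes of cytosolic ribosomal proteins, 5 were lower in all 3, 0 higher and 6 opposite, while 101 were lower in G34R (73.2%, against 32.7% of all coding genes), 5 in G34V (3.62% against 29.9%) and 48 in Set2D (34.8% against 41.7%). The number lower in all 3 was 1 without G34V replicate 1 and 9 without Set2D replicate 3. Of 49 ribosome biogenesis genes, 23 were higher in G34V (46.9%, against 19.0% of all coding genes) and 0 lower. In G34R 4 were higher (8.16% against 18.7%) and 18 lower (36.7%, near the 32.7% of all coding genes), and 2 were higher in all 3, or 5 with coding genes fitted alone. RNA polymerase subunits had 1 higher, 1 lower and 4 opposite of 28, with 2 opposite without WT replicate 3 or G34R replicate 2. Purine synthesis had 0 shared in either direction of 10, and cell separation genes 0 of 8, of which 6 were called in no mutant.

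DNA replication genes had 1 higher, 1 lower and 4 opposite of 26 (2 opposite without G34V replicate 2), and in mcm3, the 1 lower, log2 changes were -0.19 (SE 0.028) in G34R, -0.22 (SE 0.028) in G34V and -0.54 (SE 0.028) in Set2D. Homologous recombination and checkpoint genes had 1 higher, 3 lower and 6 opposite of 27. The lower genes were 0 with upper quartile scaling and with coding genes alone, where the 511 of all coding genes became 302 and 317. The opposite genes were 3 without G34R replicate 2. Iron uptake genes had 1 higher, 0 lower and 2 opposite of 12, and glycolysis and fermentation 1, 0 and 3 of 16. The wtf genes, several of them near-identical, had 2 higher, 3 lower and 6 opposite of 25, and genes of meiotic mRNA elimination 2, 1 and 2 of 14, with 4 opposite without WT replicate 3. The pfl glycoprotein genes had 2 higher (25%), 0 lower and 3 opposite of 8, and pfl7, higher in all 3, had log2 changes of 0.23 (SE 0.039) in G34R, 1.65 (SE 0.038) in G34V and 2.78 (SE 0.037) in Set2D. Among all genes 11.2% were higher in all 3, 8.12% lower and 15% opposite. Mitochondrially encoded genes had 7 higher (26.9%), 0 lower and 0 opposite of 26. Small nucleolar and spliceosomal RNAs had 4 (9.76%), 2 (4.88%) and 1 (2.44%) of 41. The prl RNAs had 5 (14.3%), 0 and 5 (14.3%) of 35, and nuclear tRNA genes 0, 0 and 6 (7.5%) of 80.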

How the data were processed

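RNA of 12 libraries was measured as read counts per gene, in 1 deposited table per library. Per the submitters' processing notes, the authors called bases with CASAVA 1.7, trimmed adapters with cutadapt, aligned reads with STAR to genome build ASM294v2 and counted them per gene with HTSeq, with SAMtools also named; other versions were not given in the sources used here. The 5 summary lines of HTSeq, among them reads outside annotated genes (1.99% to 3.30% of reads) and ambiguous reads, were left out of library sizes and tests. In 17 of 23 noncoding RNAs that an opposite-strand coding gene contains, every library had more than 3 counts, so counting kept strands apart at these genes; whether every antisense count comes from its own strand was not tested.

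From the deposited counts, CPM was computed here with TMM-scaled library sizes. Genes were kept with filterByExpr of edgeR 4.0.16 in R 4.3.3 and tested with 1 quasi-likelihood model over the 4 groups (8 residual degrees of freedom, common coefficient of variation 3.32%), with Benjamini-Hochberg adjustment over 6602 genes. Contrasts were the mean of the mutants against WT, each mutant against WT, the F-test among mutants and each mutant against the mean of the others. Intervals of 95% were taken from the model. The code was tested on simulated counts. Alternatives were upper quartile and RLE scaling, other filters, coding genes alone, DESeq2 1.42.0, voom of limma 3.58.1, an adjusted p of 0.01, models of the compared groups alone, Set2D replicate 3 with halved counts, and each library left out. Figures were drawn with matplotlib 3.10.9 in Python 3.11.15.

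Named coding genes had a mean of at least 5 CPM in 1 group. They were the 15 called higher and the 15 called lower in all 3 mutants with the largest change in the least changed mutant, the 12 of opposite direction with the largest smaller extreme, and, for each mutant, the 4 furthest from the mean of the others. Noncoding genes were named by the same rules, and lists by their counts with members of the lowest adjusted p or opposite direction. Members and lists were chosen with earlier results of these data known. Products and neighbours came from the RefSeq annotation of ASM294v3, a later build, with 6236 of 7013 genes matched by name. Genes of similar sequence were found with blastn 2.17.0 (90% identity over 100 bases, 201 genes).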

Additional observations from a re-analysis of the deposited data

Results flagged for a closer look

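The 3 mutants differed from each other in 5344 genes by the F-test among mutants, and 988 genes were called against WT in opposite directions in at least 1 pair of mutants. These 2 counts are set out here because the effect of the same contrast differed between mutants.

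The coding genes named for opposite directions are given by their highest and lowest log2 change over the mutants. These were 2.67 and -1.93 for grt1, 1.7 and -1.53 for tlh2, and 1.89 and -1.23 for SPBPB2B2.01. For shu1 they were 1.29 and -1.20, for SPCP20C8.02c 1.39 and -1.11, and for SPAC186.09 2.04 and -1.04. For SPAC869.09 they were 1.41 and -1.01, for mfm1 1.17 and -1.01, and for SPAC186.02c 3.57 and -0.99. For ght7 they were 2.64 and -0.91, for cid11 0.79 and -1.10, and for alr2 0.76 and -1.0.

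Noncoding RNAs with opposite changes were given in the same way. The extremes were 3.42 and -1.38 for SPNCRNA.287, 2.70 and -1.30 for SPNCRNA.601, 2.74 and -1.25 for grt1-antisense-1, and 3.31 and -0.73 for SPAC869.09-antisense-1. In each of these genes the difference among the mutants was itself called (edgeR F-test).

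Reads that fell outside annotated genes, which no comparison of genes used, took a mean of 2.42% of reads in G34R, 2.38% in G34V and 3.26% in Set2D, above every WT library. Reads that could not be given to 1 gene took a mean of 2.12% in G34R and 2.15% in Set2D, above every WT library, and 2.11% in G34V, where 1 library (2.085%) lay among the WT libraries. Over all 9 mutant libraries against 3 this measure did not pass (exact two-sided permutation test, adjusted p 0.0764 over 12 measures).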

How the results depend on the processing

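Counts of genes moved by more than 1.5 times in these cases. With the 9 mutant libraries as 1 group, an alternative chosen after seeing the data, 655 genes were higher and 525 lower than WT; there the differences between mutants enter the spread. With coding genes fitted alone, 1416 were lower in the mean, 425 higher in all 3 and 317 lower in all 3. They passed that bound against the 2127, 739 and 536 of all genes, although fewer genes were fitted. Coding genes in the model of all genes gave 1989, 310 and 511. Against these, only the number lower in all 3 passed the bound. Genes lower in all 3 were 320 with upper quartile scaling and 327 at an adjusted p of 0.01, where genes of opposite direction were 617. The cause of the changes with coding genes alone and with upper quartile scaling was not tested. Without any 1 library, the mean of the mutants gave 1784 to 2025 genes higher and 1722 to 2139 lower, genes higher in all 3 were 638 to 746, lower in all 3 416 to 549, opposite 799 to 1028 and called in exactly 1 mutant 1801 to 2110. Genes that differ among mutants were then 5054 to 5357, and those called against the mean of the other mutants 3740 to 4276 in G34R, 2796 to 3397 in G34V and 4162 to 4540 in Set2D. Among 201 named genes with 615 results, the alternatives gave 7025 results on the same side of the threshold, 75 stronger and 186 weaker. Of the results called in the main model, 0 reversed sign. Reversals of results not called there were counted as the same side. Of the fits without 1 library, only those with the highest and lowest adjusted p entered this tally. No paired analysis was possible because no label ties a library of 1 group to a library of another. Counts of 1 to 3 per library limit the genes under about 0.05 CPM, and 411 genes were not tested.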
